A study of Mus musculus with 6 samples.

Results

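Kinesins and cytoplasmic dynein are the motors that walk along microtubules, and the genes of their subunits, light chains and dynactin subunits were followed here in the mouse testis. Members were the rows of the authors' deposited table whose gene symbol is that of a kinesin heavy chain (Kif, Kifc), the kinesin-associated protein Kifap3, a kinesin light chain (Klc), a cytoplasmic dynein chain (Dync), a dynein light chain (Dynl) or a dynactin subunit (Dctn). This symbol rule used no measured value and found 68 of the 55331 genes, 46 of them kinesin genes and 22 dynein or dynactin genes. RNA came from whole testes at 35 days of age. The 3 Ptbp1_cKO libraries had the genotype Ptbp1fl/fl; Amh-Cre+/-, and the 3 control libraries, titled WT, had the genotype Ptbp1fl/fl, so that floxed Ptbp1 alleles were shared by both groups and the strain was given as mixed in both. Amh-Cre drives recombination in Sertoli cells, the somatic cells that hold and nourish the germ cells. Transcripts of all testis cells were measured together, and no group with Amh-Cre on unfloxed alleles was analysed, so the deletion and the transgene cannot be told apart.

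Most kinesins move cargo towards the plus ends of microtubules, while cytoplasmic dynein, with its cofactor dynactin, moves towards the minus ends. In the testis, motors of Sertoli cells carry vesicles and help to translocate elongating spermatids along microtubule tracks, whereas germ cells use motors for the meiotic spindle, for intercellular bridges, for shaping the sperm head and for building the flagellum. PTBP1 is a repressor of alternative exons, and the study asked what it does in Sertoli cells.

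The table gives 1 FPKM value per group (fragments scaled to transcript length and library size), obtained by the authors from the 3 libraries together, and no spread between libraries. Levels are therefore printed without SD, and differences rest on the authors' deposited Cuffdiff test. The labels do not say that each library was a separate animal, so the p-values may measure technical spread only. Steps among low values corresponded to about 65200000 to 72100000 fragments per Ptbp1_cKO library and 66300000 to 86800000 per control library, so that 1 FPKM over an effective length of 1 kb rested on about 204 fragments in the Ptbp1_cKO group and 226 in the control group. Exons of 19 members overlap a gene on the other strand, a protein-coding one for Kif2a, Kif4, Kif7, Kif18a, Kif20a, Kifc2, Kifc3, Klc3 and Dynlt1a. Whether the authors' counting used strand is not given in the sources used here, so reads of such pairs cannot be told apart. Counting error was small for nearly all members, and the spread between libraries is the unknown part. Ptbp1 itself stood at 46.7 FPKM in Ptbp1_cKO and 50.0 FPKM in control (q = 0.999 in the authors' deposited table), a value over all testis cells that does not check the label.

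None of the motor genes passed the threshold. Of the 66 members tested, 0 had q under 0.05 in the authors' deposited table, where 1.16% of all 22048 tested genes did. At an unadjusted p under 0.05, 3 members were higher and 4 lower in Ptbp1_cKO by Cuffdiff's test, together 10.6% of those tested, near the 8.98% of all tested genes (4.38% higher and 4.59% lower). The 7 were Dynlrb1, Dctn1 and Kif21b on the higher side and Dynlt3, Dynlt1a, Kifap3 and Kif18a on the lower side. A normal p taken from Cuffdiff's statistic also gave 0 members after Benjamini-Hochberg adjustment, and 9 higher and 10 lower genes of 22020. Even before adjustment, none of the 7 had a normal p under 0.05. Their statistics lay between -1.78 (Dynlt3) and 1.695 (Dynlrb1), so their low p-values rest on the deposited p alone. The lowest q among members was 0.110 in the authors' deposited table, that of Dynlt3, and 442 tested genes had a p as low as its own or lower. Of the 62 members that reached 1 FPKM in either group, 93.5% lay within a ratio of 1.25 either way, against 86.5% of all 15789 such genes. The median absolute log2 fold change under the same filter was 0.133 for members and 0.1271 for all tested genes. The sets were not matched for level. Among all tested genes, without that filter, the median level was 17.1 FPKM for members and 3.78 FPKM for all genes. Over the 66 members that reached 0.1 FPKM in either group, the median difference of log2(FPKM + 1) was -0.01, with 28 higher and 38 lower in Ptbp1_cKO. All 23462 genes past the same filter had a median of 0.004 and 51.2% of them were higher. A p that misses the threshold does not show that levels were equal, and a change within Sertoli cells can be diluted in whole testis. Fewer cells of a type and less RNA per cell cannot be told apart in such samples.

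**Figure D1:**
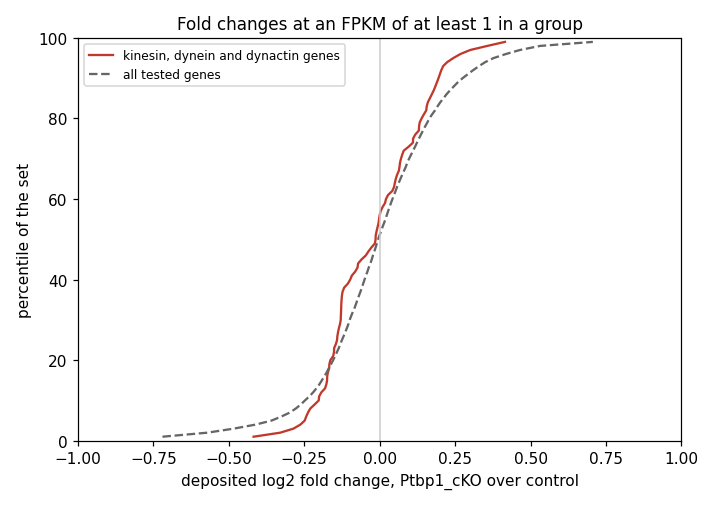
Percentile (vertical axis) of the log2 fold change in the deposited table (horizontal axis, Ptbp1_cKO divided by control) for the 62 kinesin, dynein and dynactin genes and for the 15789 tested genes reaching 1 FPKM in either group. Both curves cross 0 near their middle, and from the lower to the upper decile the motor genes span -0.20 to 0.19 and all genes -0.25 to 0.27.

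Motor genes were well represented in the testis. Their median level over both groups was 17.1 FPKM, against 3.78 FPKM over all tested genes, and 9 members averaged at least 100 FPKM. The most abundant kinesin transcript was that of Kif2b, a microtubule-depolymerising kinesin-13, at 398.2 FPKM in Ptbp1_cKO and 399.2 FPKM in control. The most abundant dynein transcript was that of the light chain Dynll1, at 431.6 FPKM in Ptbp1_cKO and 394.3 FPKM in control. At the other end, Kif12 was listed at 0 in both groups and Kif28 at 0.0111 FPKM in Ptbp1_cKO and 0.0137 FPKM in control. At an effective length of 1 kb, 3 fragments of the shallowest library were worth 0.0153 and 0.0151 FPKM in these groups. The longest Kif28 transcript has 3538 bases, over which the same FPKM stands for more fragments, so Kif28 need not lie below 3 fragments. Kif12 and Kif28 were the only members that Cuffdiff did not test. The plot of levels gives every tested member.

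**Figure D2:**
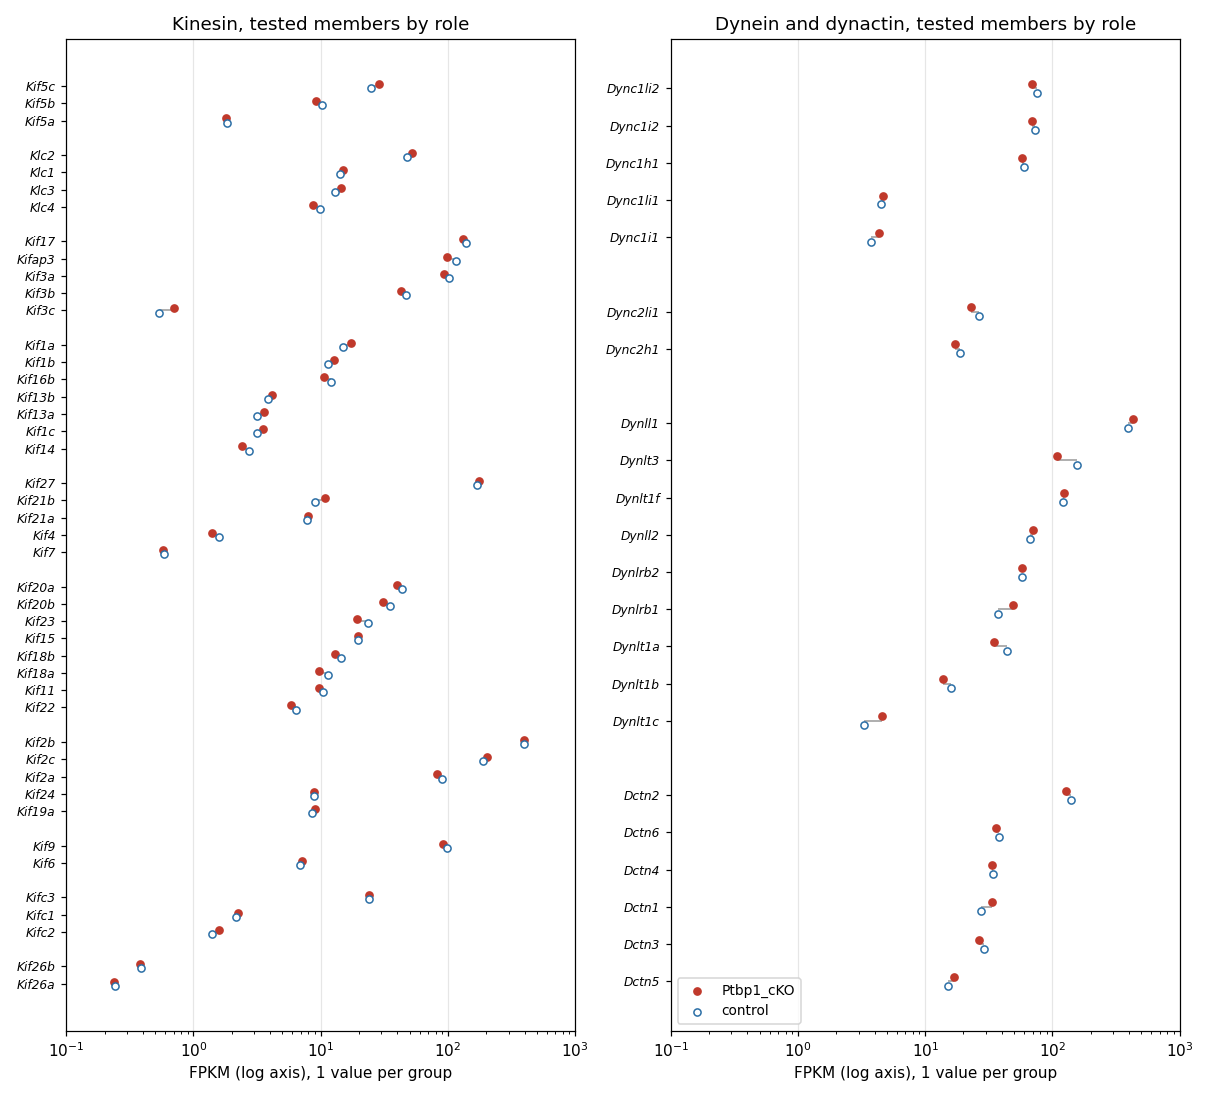
FPKM on a log axis (horizontal) of the 66 tested members, with kinesins on the left and dynein and dynactin on the right, arranged by role and then by level; filled circles are Ptbp1_cKO and open circles control, 1 value per group. Levels run from 0.239 and 0.243 FPKM in Ptbp1_cKO and control for Kif26a to 431.6 and 394.3 FPKM for Dynll1, and both groups nearly coincide for most genes.

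Kinesin-1, the conventional motor of vesicles and organelles, was supplied mainly by Kif5c and Klc2. Kif5c had 28.6 FPKM in Ptbp1_cKO and 24.9 FPKM in control (log2 fold change 0.20, q = 0.999 in the authors' deposited table). Kif5b, the broadly expressed heavy chain, had 9.14 FPKM in Ptbp1_cKO and 10.3 FPKM in control, and Kif5a 1.79 FPKM in Ptbp1_cKO and 1.85 FPKM in control. Kif5c thus made up 72.3% of the summed heavy chain level in Ptbp1_cKO and 67.2% in control. Among the light chains, which link the heavy chains to cargo, Klc2 stood at 51.7 FPKM in Ptbp1_cKO and 47.3 FPKM in control (log2 fold change 0.13, q = 0.974 in the authors' deposited table). Klc3, the light chain known from spermatid mitochondria and outer dense fibres, stood at 14.6 FPKM in Ptbp1_cKO and 12.9 FPKM in control (log2 fold change 0.18, q = 0.965 in the authors' deposited table). Klc1, the light chain best known from neurons, stood at 14.9 FPKM in Ptbp1_cKO and 14.2 FPKM in control, and Klc4 at 8.70 FPKM in Ptbp1_cKO and 9.81 FPKM in control. None of these 7 genes had an unadjusted p under 0.05 by Cuffdiff's test.

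The kinesin-2 group contains the heterotrimeric motor of intraflagellar transport, made of Kif3a, Kif3b and Kifap3, and the homodimeric Kif17, which in mouse spermatids is known to carry a coactivator of the transcription factor CREM. Kifap3, the non-motor subunit (ENSMUSG00000026585.13, chromosome 1, 163779583 to 163917109 on mm10), had 98.4 FPKM in Ptbp1_cKO and 116.3 FPKM in control, a log2 fold change of -0.24 with q = 0.335 at an unadjusted p of 0.01605 in the authors' deposited table. Its partners also had the lower value in Ptbp1_cKO. Kif3a stood at 92.6 FPKM in Ptbp1_cKO and 102.1 FPKM in control, and Kif3b at 42.7 FPKM in Ptbp1_cKO and 46.7 FPKM in control. The ratio of Kif3a to Kif3b was 2.17 in Ptbp1_cKO and 2.19 in control. Kif3c, the alternative partner of Kif3a, was scarce, at 0.702 FPKM in Ptbp1_cKO and 0.537 FPKM in control. Kif17 was the most abundant of the group, at 131.3 FPKM in Ptbp1_cKO and 137.9 FPKM in control (log2 fold change -0.07, q = 0.999 in the authors' deposited table), but shares exon sequence with Sh2d5 on the same strand, so its level is uncertain.

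Ciliary genes often carry an X-box, the site of RFX transcription factors, and the promoters of members were searched for a perfect left arm and a loose right arm, GTTGCC followed after 2 bases by GNAAC, on both strands. RefSeq promoter windows of 300 bases (250 before and 50 after an annotated start, GRCm38.p6) were found for 51 of the 68 members, and 2 of these held the motif, namely Kif17 and the dynein light chain Dynlrb2. These were 3.92% of members with a window, against 111 of all 27025 genes with a window, or 0.411% (0.359% of all 32851 windows). A match is a description of letters and does not show binding. Both promoters are printed because they hold the same element, with the match in capitals. The Kif17 window lies inside the span of the gene, which begins at 138250435, so it belongs to an internal annotated start. Whether testis transcripts begin at the starts of these windows was not tested.
Kif17, chr4:138262001-138262300, plus strand: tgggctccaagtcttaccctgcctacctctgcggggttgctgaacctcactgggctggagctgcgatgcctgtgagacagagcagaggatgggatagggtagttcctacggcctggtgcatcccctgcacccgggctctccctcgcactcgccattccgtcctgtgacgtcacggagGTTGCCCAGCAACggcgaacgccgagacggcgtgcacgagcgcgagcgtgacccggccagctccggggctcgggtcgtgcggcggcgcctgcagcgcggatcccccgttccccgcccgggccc
Dynlrb2, chr8:116504765-116505064, plus strand: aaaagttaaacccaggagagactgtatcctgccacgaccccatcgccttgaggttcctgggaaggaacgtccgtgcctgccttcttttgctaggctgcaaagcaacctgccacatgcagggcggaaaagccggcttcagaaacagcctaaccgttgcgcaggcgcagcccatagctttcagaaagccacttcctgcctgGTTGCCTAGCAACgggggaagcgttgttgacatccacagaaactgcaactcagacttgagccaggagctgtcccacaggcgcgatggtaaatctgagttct

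The element begins at position -73 from the annotated start of the window in Kif17 and at -51 in Dynlrb2, counting the start as 0. Neither gene passed Cuffdiff's threshold (unadjusted p = 0.469 for Kif17 and 0.915 for Dynlrb2 in the authors' deposited table).

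Kinesin-3 motors carry vesicles and endosomes. Kif1a, Kif1b, Kif1c, Kif13a and Kif13b were all at a higher level in Ptbp1_cKO, with log2 fold changes between 0.11 and 0.21, and 0 of the 5 had an unadjusted p under 0.05 by Cuffdiff's test. Kif1a, known as a transporter of synaptic vesicle precursors, stood at 17.4 FPKM in Ptbp1_cKO and 15.0 FPKM in control (log2 fold change 0.21, q = 0.999 in the authors' deposited table). Kif1c, a carrier of vesicles from the Golgi, stood at 3.55 FPKM in Ptbp1_cKO and 3.18 FPKM in control. Kif16b, which moves early endosomes, had the lower value in Ptbp1_cKO, at 10.6 FPKM in Ptbp1_cKO and 12.15 FPKM in control (unadjusted p = 0.0739 in the authors' deposited table), as did Kif14, a kinesin of cytokinesis, at 2.42 FPKM in Ptbp1_cKO and 2.71 FPKM in control.

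Among kinesin-4 genes, Kif27, related to the fly Hedgehog pathway protein Costal-2, was high at 174.4 FPKM in Ptbp1_cKO and 169.0 FPKM in control (log2 fold change 0.05, q = 0.999 in the authors' deposited table). Its paralogue Kif7, which acts at the tip of the primary cilium in Hedgehog signalling, stood at 0.580 FPKM in Ptbp1_cKO and 0.590 FPKM in control, so that Kif27 was about 301-fold above it in Ptbp1_cKO and 286-fold in control. Kif21b, a motor that pauses growing microtubule ends (ENSMUSG00000041642.18, chromosome 1, 136131389 to 136177998), had 10.7 FPKM in Ptbp1_cKO and 9.05 FPKM in control, a log2 fold change of 0.25 with q = 0.419 at an unadjusted p of 0.02525 in the authors' deposited table. Its close relative Kif21a stood at 7.88 FPKM in Ptbp1_cKO and 7.76 FPKM in control. The X-linked chromokinesin Kif4 was low, at 1.40 FPKM in Ptbp1_cKO and 1.59 FPKM in control.

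The kinesins of the spindle and of cytokinesis separate chromosomes and daughter cells. All 8 had the lower FPKM in Ptbp1_cKO, with a median log2 fold change of -0.14, and 1 of the 8 had an unadjusted p under 0.05. Relative to the median of tested genes reaching 1 FPKM, which was -0.005, the count was 7 of 8, because Kif15 lay at -0.0009. Kif18a, which dampens microtubule ends as chromosomes align (ENSMUSG00000027115.14, chromosome 2, 109280738 to 109341747), had 9.65 FPKM in Ptbp1_cKO and 11.5 FPKM in control, a log2 fold change of -0.25 with q = 0.493 at an unadjusted p of 0.03865 in the authors' deposited table. Exons of Kif18a overlap those of Mettl15 on the other strand. Kif23, the midzone kinesin that is also found in germ cell bridges, had 19.4 FPKM in Ptbp1_cKO and 23.5 FPKM in control (log2 fold change -0.27, q = 0.709, unadjusted p = 0.101 in the authors' deposited table). Kif20a, the most abundant of the group and needed for cytokinesis, had 39.6 FPKM in Ptbp1_cKO and 43.1 FPKM in control (log2 fold change -0.13, q = 0.9275 in the authors' deposited table). Kif20b, a partner in cytokinesis, had 31.0 FPKM in Ptbp1_cKO and 34.8 FPKM in control, Kif18b, a regulator of astral microtubules, 13.03 FPKM in Ptbp1_cKO and 14.5 FPKM in control, and the chromosome-bound Kif22 5.86 FPKM in Ptbp1_cKO and 6.43 FPKM in control. None of the 8 had a q under 0.49 in the authors' deposited table.

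The motor domain gene Cenpe, a kinesin of the kinetochore whose symbol lies outside the rule, is given for comparison. It had 23.4 FPKM in Ptbp1_cKO and 29.4 FPKM in control, a log2 fold change of -0.33 with q = 0.0860 at an unadjusted p of 0.0014 in the authors' deposited table, nearer the threshold than any member. Markers of the dividing germ cells stood as follows. Of 11 spermatocyte markers 9 had a lower FPKM in Ptbp1_cKO, with a summed level of 1229 FPKM in Ptbp1_cKO and 1376 FPKM in control, a ratio of 0.893 beside 0.901 for the 8 spindle kinesins (147.6 FPKM in Ptbp1_cKO and 163.8 FPKM in control). Of 8 spermatogonial markers 7 had a higher FPKM in Ptbp1_cKO, with a summed level of 99.9 FPKM in Ptbp1_cKO and 83.8 FPKM in control. The part of these marker shifts in the spindle kinesin levels was not tested. The ratio of 0.901 depends on how roles were listed. Of kinesins of dividing cells under other roles, Kif4 and Kif14 had the lower value in Ptbp1_cKO. Kif2c (203.2 FPKM in Ptbp1_cKO and 188.2 FPKM in control) and Kifc1 (2.25 and 2.17 FPKM) had the higher. Summed ratios near 0.901 were also found for kinesin-2 (0.906) and cytoplasmic dynein 2 (0.885).

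Many genes of cell division carry the cell cycle homology region, whose core is TTTGAA, near the start site. This core was found on either strand in the windows of 14 of 51 members, or 27.5%, and of 5466 of all 27025 genes with a window, or 20.2% (17.9% of all 32851 windows). Of the 7 spindle and cytokinesis kinesins with a window, 6 held it, namely Kif11, Kif15, Kif18b, Kif20b, Kif22 and Kif23. Among members listed under other roles, 4 further kinesins of dividing cells held it, Kif2c, Kif4, Kif14 and Kifc1. This grouping was made after the matches were seen, so it lowers the share among the remaining members by choice. Not all these copies lie near the start: they began at position -103 in Kif2c, 19 in Kif4, -228 in Kif14 and 1 in Kifc1. The remaining 40 members with a window had 4 matches, in Kif1a, Kif26b, Kif27 and Dctn1. The matching windows of Kif2c, Kif4, Kif14, Kif1a, Kif27 and Dctn1 lie inside the span of the gene, so they belong to internal annotated starts. Windows of 3 spindle kinesins are printed because they show the core near the start, and every copy of the core is in capitals.
Kif11, chr19:37376132-37376431, plus strand: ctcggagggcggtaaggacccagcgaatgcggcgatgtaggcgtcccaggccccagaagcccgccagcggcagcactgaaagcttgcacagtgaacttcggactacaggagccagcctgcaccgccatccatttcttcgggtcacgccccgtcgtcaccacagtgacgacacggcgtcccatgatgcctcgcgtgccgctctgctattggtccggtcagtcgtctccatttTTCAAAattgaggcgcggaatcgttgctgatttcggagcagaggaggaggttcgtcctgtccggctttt
Kif15, chr9:122950831-122951130, plus strand: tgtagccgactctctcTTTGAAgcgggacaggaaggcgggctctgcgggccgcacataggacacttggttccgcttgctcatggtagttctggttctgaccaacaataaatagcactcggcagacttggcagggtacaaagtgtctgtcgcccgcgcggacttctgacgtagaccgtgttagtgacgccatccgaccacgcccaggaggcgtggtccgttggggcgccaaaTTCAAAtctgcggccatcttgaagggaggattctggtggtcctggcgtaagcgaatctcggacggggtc
Kif23, chr9:61946750-61947049, minus strand: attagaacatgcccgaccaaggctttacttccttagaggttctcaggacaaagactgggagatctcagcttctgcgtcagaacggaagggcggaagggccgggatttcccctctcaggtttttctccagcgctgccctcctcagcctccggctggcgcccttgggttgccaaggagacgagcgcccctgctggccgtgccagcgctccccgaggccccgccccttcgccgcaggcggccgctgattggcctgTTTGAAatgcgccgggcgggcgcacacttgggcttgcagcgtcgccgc

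The core began at position -19 in Kif11, at -19 and -234 in Kif15 and at 2 in Kif23. Kif11, the plus-end motor that pushes spindle poles apart, stood at 9.61 FPKM in Ptbp1_cKO and 10.5 FPKM in control, and Kif15, which backs it up, at 19.47 FPKM in Ptbp1_cKO and 19.48 FPKM in control. The log2 fold changes of these 3 genes ranged from -0.27 for Kif23 to -0.0009 for Kif15.

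**Figure D3:**
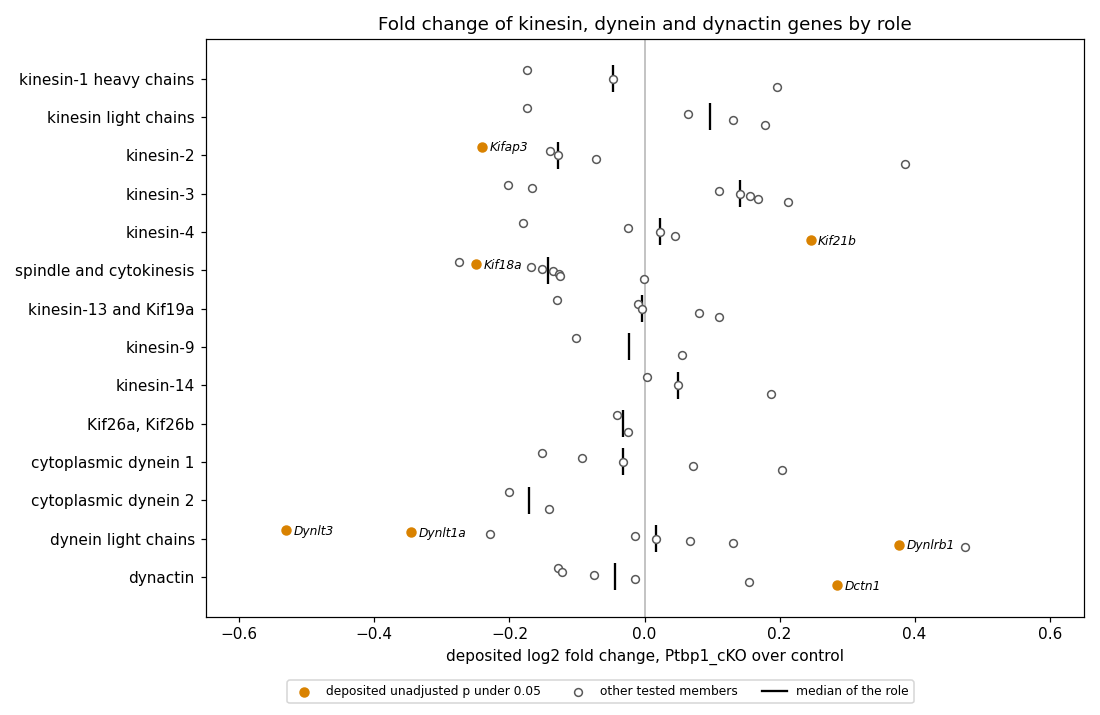
Log2 fold change from the deposited table (horizontal axis, Ptbp1_cKO divided by control) for the 66 tested members by role (vertical axis); filled points have an unadjusted p under 0.05, open points are the other members and black bars are role medians. The 8 spindle and cytokinesis kinesins lie at or left of 0, and the dynein light chains spread most widely, from -0.53 to 0.47.

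The kinesin-13 family, which takes microtubules apart, was the most abundant kinesin family and differed little. Besides Kif2b (log2 fold change -0.004, q = 0.999 in the authors' deposited table), Kif2c had 203.2 FPKM in Ptbp1_cKO and 188.2 FPKM in control, and Kif2a 81.4 FPKM in Ptbp1_cKO and 89.1 FPKM in control (log2 fold change -0.13, q = 0.898 in the authors' deposited table). Kif24, a centriolar kinesin-13, stood at 8.83 FPKM in Ptbp1_cKO and 8.89 FPKM in control. Kif2b held 57.6% of the family's summed level in Ptbp1_cKO and 58.2% in control. The summed level of the family was 1.01 times as high in Ptbp1_cKO as in control.

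None of Kif6, Kif9, Kif19a, Kifc1, Kifc2 and Kifc3 had an unadjusted p under 0.05 by Cuffdiff's test. Kif9, a kinesin of the sperm flagellum, had 92.1 FPKM in Ptbp1_cKO and 98.8 FPKM in control (log2 fold change -0.10, q = 0.964 in the authors' deposited table), about 13-fold above its relative Kif6 in Ptbp1_cKO and 14.5-fold above it in control. Kif19a, a kinesin that limits the length of cilia, had 9.02 FPKM in Ptbp1_cKO and 8.54 FPKM in control. Among minus-end kinesins, Kifc3 stood at 24.13 FPKM in Ptbp1_cKO and 24.05 FPKM in control (log2 fold change 0.004, q = 0.999 in the authors' deposited table) and Kifc2 at 1.60 FPKM in Ptbp1_cKO and 1.40 FPKM in control (log2 fold change 0.19, q = 0.999 in the authors' deposited table). Kifc1, known from acrosome formation and the shaping of the spermatid nucleus, stood at 2.25 FPKM in Ptbp1_cKO and 2.17 FPKM in control. It is 96.8% identical to Kifc5b, so fragments may be shared between them and its level is uncertain. Kif26a and Kif26b, kinesins without motor activity, were scarce, and Kif26b had 0.379 FPKM in Ptbp1_cKO and 0.390 FPKM in control (log2 fold change -0.04, q = 0.999 in the authors' deposited table).

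The motor core of cytoplasmic dynein 1 showed no member with an unadjusted p under 0.05 by Cuffdiff's test. The heavy chain Dync1h1 had 58.2 FPKM in Ptbp1_cKO and 59.5 FPKM in control. Each of its companion chains came mainly from 1 gene. Dync1i2 made up 94.1% of the intermediate chain level in Ptbp1_cKO and 95.1% in control, and Dync1li2 made up 93.6% of the light intermediate chain level in Ptbp1_cKO and 94.5% in control. Dync1li2 stood at 68.7 FPKM in Ptbp1_cKO and 76.3 FPKM in control (log2 fold change -0.15, q = 0.884 in the authors' deposited table). The minor chain Dync1i1, known from neurons, stood at 4.33 FPKM in Ptbp1_cKO and 3.76 FPKM in control (log2 fold change 0.20, q = 0.999 in the authors' deposited table). Cytoplasmic dynein 2 is the retrograde motor of intraflagellar transport. Its heavy chain Dync2h1 had 17.1 FPKM in Ptbp1_cKO and 18.9 FPKM in control, and Dync2li1 had 23.1 FPKM in Ptbp1_cKO and 26.6 FPKM in control (log2 fold change -0.20, q = 0.6895, unadjusted p = 0.09435 in the authors' deposited table).

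The widest differences among members were in the dynein light chains, small dimers that bind the intermediate chains. Dynlt3, a Tctex-type light chain (ENSMUSG00000031176.8, chromosome X, 9654267 to 9663003, minus strand), had 108.1 FPKM in Ptbp1_cKO and 156.3 FPKM in control. Its ratio was 0.692, the log2 fold change -0.53, with q = 0.110 at an unadjusted p of 0.0022 in the authors' deposited table. X-linked genes as a class had lower values as well. The 586 X-linked genes reaching 1 FPKM had a median log2 fold change of -0.13, against -0.002 for 15126 tested autosomal genes, and 31.9% of them had an unadjusted p under 0.05 in either direction in the authors' deposited table. Both X-linked members, Dynlt3 and Kif4, had the lower value in Ptbp1_cKO. The part of the X-linked shift in the Dynlt3 value was not tested.

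The remaining Tctex-type genes are the Dynlt1 copies on chromosome 17, each at least 98.8% identical to another copy. Dynlt1f had 122.7 FPKM in Ptbp1_cKO and 121.2 FPKM in control, and Dynlt1a 34.6 FPKM in Ptbp1_cKO and 44.0 FPKM in control (log2 fold change -0.35, q = 0.422, unadjusted p = 0.02585 in the authors' deposited table). Dynlt1b had 13.7 FPKM in Ptbp1_cKO and 16.1 FPKM in control, and Dynlt1c 4.56 FPKM in Ptbp1_cKO and 3.28 FPKM in control. Their single values are uncertain, since reads of near-identical copies can be assigned to any of them, and the exons of Dynlt1a also overlap Tmem181a on the other strand. The Dynlt1c ratio of 1.39 was the largest among tested members, with an unadjusted p of 0.123 in the authors' deposited table. Summed over the 4 copies, the ratio of Ptbp1_cKO to control was 0.951.

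Dynlrb1, a roadblock-type light chain (ENSMUSG00000047459.14, chromosome 2, 155236533 to 155250277), was on the higher side. It had 48.9 FPKM in Ptbp1_cKO and 37.6 FPKM in control, a ratio of 1.30 and a log2 fold change of 0.38 with q = 0.132 at an unadjusted p of 0.00295 in the authors' deposited table. Its paralogue Dynlrb2, known from ciliated tissues and testis, was level at 57.6 FPKM in Ptbp1_cKO and 58.15 FPKM in control. Dynlrb2 thus exceeded Dynlrb1 by 1.18-fold in Ptbp1_cKO and 1.545-fold in control. Whether the difference between the paralogues is itself beyond the spread of libraries was not tested, since no values per library were used. Most Sertoli, leukocyte and stroma markers were also higher in Ptbp1_cKO. Of 14 Sertoli markers 13 had a higher FPKM (summed 2012 FPKM in Ptbp1_cKO and 1703 FPKM in control). Clu alone had 1199 FPKM in Ptbp1_cKO and 853.6 FPKM in control, a larger difference than that of the Sertoli sums. All 12 of 12 leukocyte and stroma markers were higher (summed 124.7 FPKM in Ptbp1_cKO and 95.01 FPKM in control). Of 8 Leydig cell markers, also somatic, 4 were higher (summed 1564 FPKM in Ptbp1_cKO and 1279 FPKM in control). Insl3 alone had 1049 FPKM in Ptbp1_cKO and 749.6 FPKM in control, a larger difference than that of the Leydig sums. Of 10 round spermatid markers 2 were higher (summed 2360 FPKM in Ptbp1_cKO and 2496 FPKM in control). Of 10 elongating spermatid markers 9 were higher (summed 56567 FPKM in Ptbp1_cKO and 53278 FPKM in control). Prm1 weighed heavily in these sums, at 16362 FPKM in Ptbp1_cKO and 13135 FPKM in control. Tnp1, the most abundant of the list, had the lower value in Ptbp1_cKO, at 18244 FPKM in Ptbp1_cKO and 19773 FPKM in control. None of the 73 markers was listed at 0 in a group. The part of these shifts in the Dynlrb1 and Dctn1 levels was not tested.

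The promoters of Dynlrb1 and Dynlt3 are printed as those of the members with the lowest p-values, to be set beside that of Dynlrb2 above. Neither holds the X-box letters or the TTTGAA core, and they are in lower case throughout.
Dynlrb1, chr2:155236283-155236582, plus strand: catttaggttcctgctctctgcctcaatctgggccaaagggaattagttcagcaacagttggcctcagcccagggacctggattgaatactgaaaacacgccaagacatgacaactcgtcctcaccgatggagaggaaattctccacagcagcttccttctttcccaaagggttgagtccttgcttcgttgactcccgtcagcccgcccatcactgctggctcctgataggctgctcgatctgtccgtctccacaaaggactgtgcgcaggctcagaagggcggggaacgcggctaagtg
Dynlt3, chrX:9662934-9663233, minus strand: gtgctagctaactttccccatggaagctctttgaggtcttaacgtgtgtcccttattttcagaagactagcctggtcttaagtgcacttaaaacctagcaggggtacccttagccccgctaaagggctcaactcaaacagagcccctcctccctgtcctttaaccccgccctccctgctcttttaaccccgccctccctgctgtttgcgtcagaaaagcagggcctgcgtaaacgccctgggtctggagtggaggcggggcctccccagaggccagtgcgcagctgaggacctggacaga

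The LC8-type light chains, which bind many proteins besides dynein, were led by Dynll1 (log2 fold change 0.13, q = 0.991 in the authors' deposited table). Dynll2 had 70.0 FPKM in Ptbp1_cKO and 66.9 FPKM in control, so that Dynll1 was 6.16-fold above it in Ptbp1_cKO and 5.90-fold in control.

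**Figure D4:**
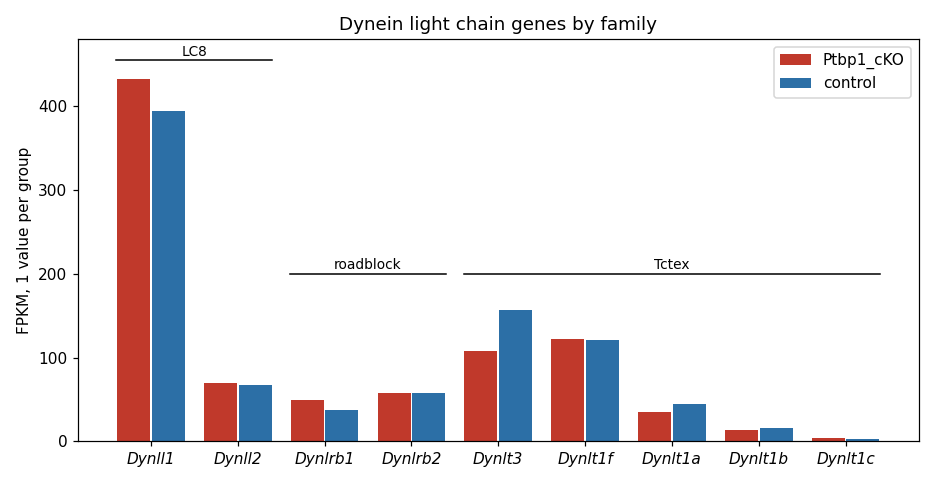
FPKM (vertical axis, from 0) of the 9 dynein light chain genes (horizontal axis, grouped as LC8, roadblock and Tctex types) in Ptbp1_cKO (left bar) and control (right bar), 1 value per group and no error bars. Dynlt3 stands at 108.1 and 156.3 FPKM and Dynlrb1 at 48.9 and 37.6 FPKM, while Dynlrb2 and Dynlt1f are nearly level.

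Dynactin joins dynein to its cargo and to the microtubule. Dctn1, its large microtubule-binding subunit (ENSMUSG00000031865.16, chromosome 6, 83165920 to 83200117), had 33.25 FPKM in Ptbp1_cKO and 27.3 FPKM in control, a log2 fold change of 0.28 with q = 0.3015 at an unadjusted p of 0.01295 in the authors' deposited table. The subunit that sits with it in the shoulder of the complex, Dctn2, had 127.7 FPKM in Ptbp1_cKO and 139.7 FPKM in control (log2 fold change -0.13, q = 0.861 in the authors' deposited table). The ratio of Dctn2 to Dctn1 was 3.84 in Ptbp1_cKO and 5.12 in control. The pointed-end subunits Dctn4, Dctn5 and Dctn6 had log2 fold changes of -0.01, 0.15 and -0.07, and the shoulder subunit Dctn3 of -0.12, all 4 with an unadjusted p above 0.23 by Cuffdiff's test.

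Other genes of motor transport were read in the same way. Of 62 tested genes in 5 lists of dynactin filament subunits, dynein regulators and adaptors, kinesin cargo adaptors, microtubule-associated proteins and motor genes outside the symbol rule, 0 passed the deposited threshold, and 5 had an unadjusted p under 0.05 by Cuffdiff's test, or 8.06%, again near the 8.98% of all tested genes. Among the 7 dynactin filament and cap genes, Capzb, an actin-capping subunit, had 267.5 FPKM in Ptbp1_cKO and 233.7 FPKM in control (q = 0.552, unadjusted p = 0.04895 in the authors' deposited table). Among the 19 dynein regulators and adaptors, Rilp, an adaptor of late endosomes, had 0.625 FPKM in Ptbp1_cKO and 0.412 FPKM in control (q = 0.4498, unadjusted p = 0.0315 in the authors' deposited table). The most abundant of that list, Hook1, which is needed for the attachment of the spermatid manchette, had 392.9 FPKM in Ptbp1_cKO and 435.3 FPKM in control (unadjusted p = 0.449 in the authors' deposited table). Among the 15 kinesin cargo adaptors, Arl8a, a lysosomal GTPase that recruits kinesins, had 15.8 FPKM in Ptbp1_cKO and 12.8 FPKM in control (q = 0.318, unadjusted p = 0.0145 in the authors' deposited table). None of the 14 microtubule-associated proteins had an unadjusted p under 0.05 by Cuffdiff's test, and the most abundant, the plus-end protein Mapre3, had 205.7 FPKM in Ptbp1_cKO and 169.4 FPKM in control. In the list of motor genes outside the rule, Tctex1d2, a light chain of dynein 2, had 91.8 FPKM in Ptbp1_cKO and 109.2 FPKM in control (q = 0.424, unadjusted p = 0.02615 in the authors' deposited table), beside Cenpe.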

How the data were processed

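Polyadenylated RNA went into TruSeq stranded libraries, per the labels' protocols. Tools listed in the submitters' processing notes are STAR 2.6.1d, Trimmomatic 0.38, bcl2fastq 2.20, Cuffdiff and Cufflinks, with build mm10 and no settings. For each gene the authors' deposited table gives 1 FPKM per group and a log2 fold change (Ptbp1_cKO divided by control). It also gives, per the file headers, a p-value, a q-value and a test statistic, which is a signed score. Recomputed Benjamini-Hochberg values differed from the deposited q by at most 5.2e-07.

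Calls were Cuffdiff's, at q under 0.05 among genes of status OK. Medians used log2(FPKM + 1) and genes reaching 0.1 FPKM in either group, which understates changes of low genes. Members and lists were chosen with earlier results of these data known. Full statistics were given for members with an unadjusted p under 0.05 and, per role, for the most abundant member and that with the largest change among those reaching 1 FPKM; from other lists, for genes with an unadjusted p under 0.05 or, with none, the most abundant. Other single statistics, Hook1 and the printed promoters were chosen after their values were seen.

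Positions are from GENCODE M21, which matched 65 of 68 members with their version. Near-identical copies were sought with BLAST 2.17.0 (95% identity over 80% of the longest transcript). Promoters are RefSeq's on GRCm38.p6, the assembly also called mm10. Fragment weights were read from single-exon genes. These weights and the adjustment were tested on simulated data. Python 3.11.15, pandas 2.3.3 and SciPy 1.17.1 were used.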

Additional observations from a re-analysis of the deposited data

How the results depend on the processing

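With q under 0.10, 1 gene of the other motor lists, Cenpe, counted as called where the deposited threshold gave 0; no member did. Members past the threshold numbered 0 with the normal p from the statistic, with adjustment over genes reaching 1 FPKM (lowest member q 0.0934, for Dynlt3) and with q under 0.10. Of 21 alternatives tried for the counts and medians, 20 stayed within the limits set (1.5 times for counts, 0.05 for medians on the log2 scale). The limit for medians was wider than the medians themselves, which lay from -0.023 to -0.006, so staying within it shows little. With a pseudocount of 0.1 the kinesin median moved from -0.006 to -0.013. Of the named members' fold changes, 51 of 52 recomputed values kept their sign, a count nearly fixed in advance. The difference of log2(FPKM + 1) cannot change the sign. Taking values relative to the median of genes reaching 1 FPKM, which was -0.005, can change it only for smaller fold changes. The exception was Kif2b, at 0.0016 in place of -0.004 after that centring. No paired analysis was possible because the table holds 1 value per group, and for the same reason no replicate was left out. Depth limits at most Kif12 and Kif28, of which Kif28 need not lie below 3 fragments. The spread between libraries is unknown for every member.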
